A study of Mus musculus with 24 samples.

Results

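In mouse skin cells sorted after a partial-thickness wound, 937 stretches of open chromatin were called as peaks while the wound was young. No other population profiled had a peak called there. The regions were chosen by the presence and absence of deposited ATAC-seq peaks: each was held by the peak lists of day 3 and day 7 after a partial-thickness wound and by none of the other 6 lists. Merging the 267990 peaks of all 8 lists gave 63188 regions, of which the 937 are 1.48%, and they are 3.17% of the 29556 regions that both early partial-thickness lists held. Presence in these lists and the strength of their peaks are what chose the regions, so both are given as a description, with no test.

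The study comprised 24 samples in 8 groups, all from skin of mice of a CD1 x C57BL/6J cross with a tamoxifen-inducible Cre (CreER) and a YFP reporter in the Rosa26 locus (R26-YFP). The Krt19-CreER/R26-YFP mice were either left unwounded, as the source of 4 hair follicle stem cell samples (day 0) and 7 epidermal stem cell samples (4 at day 0, 3 at day 80), or given a partial-thickness wound. From that wound came follicle-derived progeny, per the labels, with 3, 2 and 3 samples at days 3, 7 and 80. The Sox9-CreER/R26-YFP mice had a full-thickness wound, and their samples, 3 at day 7 and 2 at day 80, are labelled as epidermis-derived progeny. The 2 wound types therefore differ in Cre driver and labelled origin as well as in depth, and these cannot be told apart. The labels give neither the age of the mice nor the sort gates. Each group came as 1 peak list with no values per sample, so there is no error between replicates, no difference between groups was tested, and read depth is unknown. Intervals beside shares are exact 95% binomial ones (Clopper-Pearson), which treat regions as independent and reflect counting error alone. The day 0 epidermal list was matched by its deposited name, although the tag in its peak names reads control, day 7, and leaving this list out of the rule gave 1011 regions.

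In ATAC-seq a transposase inserts into DNA that nucleosomes leave exposed, so that peaks of insertions mark promoters, enhancers and other regulatory DNA. A partial-thickness wound removes the epidermis and upper follicle, and stem cells of the hair follicle bulge then move upwards, adopt an epidermal fate and close the surface. While they do so, such cells are known to open regulatory elements bound by stress-induced factors, among them the AP-1 family of Fos and Jun proteins, which recognise the letters TGANTCA, and ETS factors. Elements that open in a wound and close once it has healed are called transient, and the name here means absence from the day 80 lists.

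A minority of the regions sat on gene starts, and their sequences show the range of promoters involved. In RefSeq start-site windows of GRCm38.p6, the assembly of mm10, running from 250 bases before to 50 bases after each start, 52 windows of 51 genes overlapped 50 of the regions. Matches to the AP-1 letters, which read the same on both strands, lay in 6 of the 52 windows. The Dclk1 window, with a match beginning at -59 and another at -20 from the start site, is shown whole (chr3:55461478-55461777, + strand), because its region was the strongest of all that touched a start site. The windows of Plin5, Erc2, Wnt5b and the non-coding genes Gm40602 and A730020M07Rik had 1 match each, shown with 17 bases on either side. Capitals mark the AP-1 letters, every sequence runs 5′ to 3′ along its gene, and all of these matches lay inside the regions.
Dclk1: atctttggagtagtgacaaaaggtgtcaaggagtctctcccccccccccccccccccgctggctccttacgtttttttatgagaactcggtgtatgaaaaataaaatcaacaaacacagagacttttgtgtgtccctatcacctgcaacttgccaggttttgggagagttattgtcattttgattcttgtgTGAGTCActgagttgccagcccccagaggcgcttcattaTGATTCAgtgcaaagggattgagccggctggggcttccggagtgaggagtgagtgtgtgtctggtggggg
Plin5: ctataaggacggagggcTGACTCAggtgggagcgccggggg
Erc2: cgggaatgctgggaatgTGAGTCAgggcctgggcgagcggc
Wnt5b: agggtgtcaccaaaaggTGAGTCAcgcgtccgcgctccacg
Gm40602: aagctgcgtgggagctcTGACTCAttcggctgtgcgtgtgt
A730020M07Rik: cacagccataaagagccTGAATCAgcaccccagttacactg
The letters were TGAGTCA in Dclk1, Erc2 and Wnt5b, TGACTCA in Plin5 and Gm40602, TGATTCA in the nearer match of Dclk1 and TGAATCA in A730020M07Rik. The short stretches lie at chr17:56117536-56117576 (- strand, Plin5), chr14:27622339-27622379 (+ strand, Erc2), chr6:119544515-119544555 (- strand, Wnt5b), chr10:13060412-13060452 (+ strand, Gm40602) and chr3:121646662-121646702 (- strand, A730020M07Rik). Such a match describes the sequence and is no evidence that a factor bound it.

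The same windows held from 0 to 47 CpG sites, against 0 to 67 over all windows of the table. CpG content separates broadly used CpG-island promoters from promoters of restricted use. The windows of Wnt5b and Fgf2, rich in CpG, and those of Akr1c18 and Cd38, poor in it, are shown with each CpG in capitals.
Wnt5b: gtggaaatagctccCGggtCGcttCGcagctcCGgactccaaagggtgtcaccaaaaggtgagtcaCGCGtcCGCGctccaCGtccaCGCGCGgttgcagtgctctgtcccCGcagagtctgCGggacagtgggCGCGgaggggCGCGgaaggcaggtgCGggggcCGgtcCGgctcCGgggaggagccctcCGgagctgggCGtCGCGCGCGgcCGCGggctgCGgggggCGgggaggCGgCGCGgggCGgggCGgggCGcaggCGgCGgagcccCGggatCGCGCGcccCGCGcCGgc
Fgf2: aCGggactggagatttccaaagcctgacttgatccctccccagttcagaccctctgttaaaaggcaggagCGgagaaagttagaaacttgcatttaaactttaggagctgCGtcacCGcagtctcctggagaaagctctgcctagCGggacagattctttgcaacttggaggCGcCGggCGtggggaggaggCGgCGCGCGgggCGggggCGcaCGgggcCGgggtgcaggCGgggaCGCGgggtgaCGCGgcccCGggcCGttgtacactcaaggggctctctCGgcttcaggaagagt
Akr1c18: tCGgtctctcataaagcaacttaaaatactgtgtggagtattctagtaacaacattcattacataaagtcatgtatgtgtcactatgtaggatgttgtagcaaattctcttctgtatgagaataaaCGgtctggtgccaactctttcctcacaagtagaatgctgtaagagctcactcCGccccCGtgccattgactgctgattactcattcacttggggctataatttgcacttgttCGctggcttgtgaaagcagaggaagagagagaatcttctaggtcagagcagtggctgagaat
Cd38: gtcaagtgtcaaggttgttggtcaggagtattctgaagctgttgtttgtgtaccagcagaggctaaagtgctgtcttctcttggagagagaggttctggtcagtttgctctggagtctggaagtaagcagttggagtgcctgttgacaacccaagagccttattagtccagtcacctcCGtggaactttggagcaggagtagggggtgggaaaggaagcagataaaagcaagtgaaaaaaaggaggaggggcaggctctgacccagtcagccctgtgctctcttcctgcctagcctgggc
The Wnt5b window (chr6:119544298-119544597, - strand) held 47 CpG sites and the Fgf2 window (chr3:37348403-37348702, + strand) 24. The Akr1c18 window (chr13:4150597-4150896, - strand) held 5 and the Cd38 window (chr5:43868559-43868858, + strand) 1. Wnt5b encodes a secreted Wnt ligand, Fgf2 basic fibroblast growth factor, Akr1c18 a steroid-reducing enzyme and Cd38 a surface enzyme that consumes NAD. The Wnt5b region, 2490 bp wide, also covers the start of the neighbouring gene model Gm52875, to which it was assigned in the counts by gene.

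Across the 52 windows the ratio of observed to expected CpG had a median of 0.52 and ran from 0 at Btg1b to 1.196 at Grin1. Windows overlapped by regions of all 8 lists had a median of 0.80 (n = 9374), windows at other regions 0.62 (n = 4192) and windows at no region 0.22 (n = 19233). A ratio under 0.4 was found in 20 of the 52 windows (38.5%, 25.3 to 52.98), in 8.21% of those at regions of all 8 lists and in 31.4% of those at other regions. The start-site windows of the regions were thus poorer in CpG than those open in all lists, and their interval includes the share at other regions. CpG content was not used by the rule. The plot of CpG content by kind of region shows both the poor and the rich windows.

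**Figure D1:**
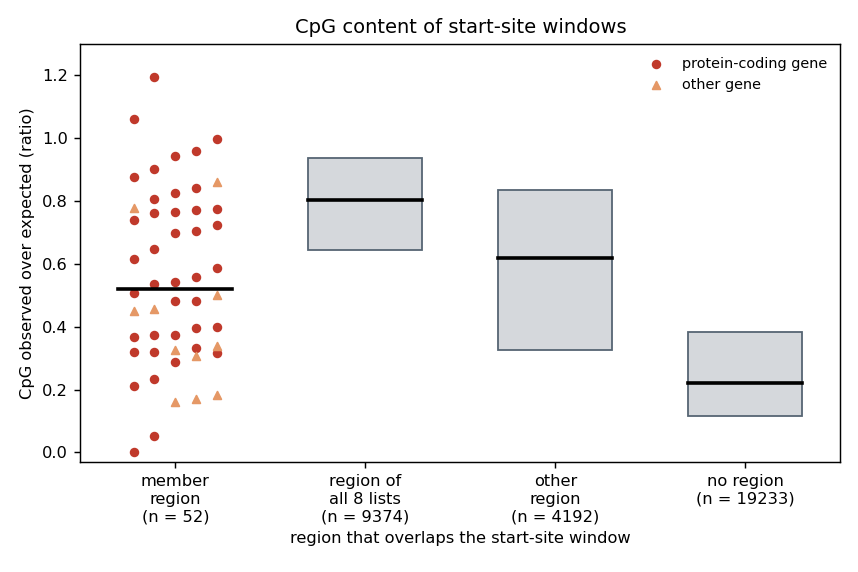
Ratio of observed to expected CpG (vertical axis) in start-site windows, by the kind of region that overlaps the window. Points are the 52 windows at the 937 regions (circles for protein-coding genes, triangles for others), lines are medians and boxes the central 50% of the other 3 kinds, with medians of 0.80, 0.62 and 0.22 against 0.52.

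The letters of 16 motifs were searched on both strands of these windows and of all 32851 windows of the table. AP-1 letters (TGANTCA) were in 11.5% (4.35 to 23.4) of the 52 windows, 7.81% of all windows, 9.64% of windows at other regions and 4.67% of windows at regions of all 8 lists. The ETS letters CAGGAAG were in 12 windows (23.1%, 12.5 to 36.8), among them those of Fgf2 and Cd38, against 13.3% of all windows. STAT letters (TTCNNNGAA) and NF-kB letters (GGGANNTCC) were in 5 windows each (9.62%, 3.20 to 21.0), against 8.30% and 4.30% of all windows, and TEAD letters (ACATTCC) in 2 (3.85%), against 3.85%. The KLF/SP letters CCGCCC, which hold a CpG themselves, were in 33 windows (63.5%, 49.0 to 76.4), against 35.7% of all and 67.8% of windows at regions of all 8 lists. GATA letters (AGATAAG) had no match in the 52 windows, for which the interval reaches 6.85%, and were in 3.04% of all windows. GRHL letters (AACCGGTT) and longer patterns for p53 or p63 and for CTCF had no match either, and were in 0.15%, 0.71% and 1.28% of all windows. Of the 16 motifs, KLF/SP alone had an interval that left out the share over all windows, most of which no region overlaps. That interval includes the KLF/SP share of windows at other regions, 53.3%. Against windows at other regions, ETS alone had an interval that left out the share, 12.4%, and only just. No difference was tested.

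Most of the regions were far from promoters. Within 1 kb of an end of a protein-coding gene lay 77 of them (8.22%, 6.54 to 10.2), against 19.0% of all regions and 32.3% of the regions in both early partial-thickness lists. Inside a gene lay 437 (46.6%, 43.4 to 49.9), against 57.8% of all regions, and 125 (13.3%, 11.2 to 15.7) lay over 100 kb from any protein-coding gene, against 10.1%. The median distance to a start site was 23474 bp for the regions and 17793 bp over all. The place of a region relative to genes was not used by the rule, although it moves with the number of lists that hold a region, since 52.2% of the regions of all 8 lists were within 1 kb of a gene end.

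The class most like these regions, the 2180 that both early partial-thickness lists shared with the day 7 full-thickness list and no other, lay in similar places. There, 6.83% (5.81 to 7.98) were within 1 kb of a gene end and 49.9% (47.7 to 52.0) inside a gene, and these intervals overlap those of the 937. Within 50 kb of a protein-coding gene lay 78.5% (75.8 to 81.1) of the 937 and 81.7% (80.1 to 83.3) of the 2180. A peak of any of the 5 lists other than these 3 was within 5 kb of 26.3% (23.5 to 29.2) of the 937 and of 30.1% (28.2 to 32.1) of the 2180. None of these differences was tested over samples.

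The regions were weak members of the lists that held them. The authors' −log10 p had a median of 52.2 at day 3 (39.8 to 129) and 52.4 at day 7 (40.3 to 140), against medians over the whole lists of 73.1 and 77.3. The fold enrichment over local background had a median of 8.71 at day 3 (3.00 to 14.5) and 10.0 at day 7 (3.32 to 18.2), close to the list medians of 8.61 and 10.1. Ranked by −log10 p, the median region stood at percentile 23.4 at day 3 and 21.7 at day 7. Medians were 58.7 and 57.8 over the 29556 regions of both lists and 41.6 and 27.0 over the 2180 shared with the full-thickness wound. Regions of the day 3 or the day 7 partial-thickness list alone were weaker still, at 12.9 and 13.4. Of the 937, 50 regions (5.34%) were in the upper 50% of both lists, and 355 (37.9%) were in the lowest 10% of either. The median width was 799 bp (268 to 3059), against 951 bp over all regions, 1513 bp for those of all 8 lists, 855.5 bp for the 2180 shared with the full-thickness wound, and 694 and 644 bp for regions of the day 3 or the day 7 partial-thickness list alone. The peak summits of the 2 lists lay a median of 10 bp apart, and 94.7% (93.0 to 96.0) within 100 bp. Across the 937 regions the folds of the 2 lists had a Pearson r of 0.80 and a Spearman rho of 0.76, against 0.89 and 0.88 over the 29556 regions of both lists. Their percentiles were less alike, with 0.41 and 0.35 over the 937 and 0.79 and 0.81 over the 29556. These are described across regions, and the 2 lists share a tissue, a genotype and the local base composition.

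Threshold and absence meet at the edges of the rule. The weakest region inside it by its lower percentile, near Rtl9 on chromosome X, had −log10 p values of 40.0 and 40.3, just above the lowest values kept in the 2 lists, 39.7 and 40.2. Just outside stood a region in Otub2, a deubiquitinase gene, with 46.3 and 49.6 in the early lists and a full-thickness day 7 peak at 32.2, the lowest value of that list. A region in Pecam1, an endothelial adhesion gene, was outside through a day 80 partial-thickness peak at 21.0, again the lowest kept. The other 6 lists kept peaks down to values between 7.86 and 32.2. Of the 3120 regions that a single other list kept out, the day 7 full-thickness list accounted for 2180 and the hair follicle list for 669, with 39 to 83 for each of the other 4. Leaving out the weakest 10% of each of the other 6 lists, an alternative chosen after seeing the data, raised the number of regions to 1408.

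None of the 12 strongest regions lay within 1 kb of an end of a protein-coding gene. Their values come from the 2 lists that chose them. The region with the highest lower percentile (75.8) was inside Prr5l, which encodes a partner of the mTORC2 kinase complex (gene ID 72446, chr2:101862047-101863254). Its peaks had fold enrichments of 12.1 at day 3 and 13.1 at day 7, and −log10 p values of 129 and 117. A region near Sox9, which encodes a transcription factor of hair follicle stem cells, ranked 3 by the same measure (chr11:112823808-112824736). It lay 36051 bp from Sox9 and under 1 kb from the start of the non-coding gene 1700012H19Rik, with folds of 12.2 and 13.8 and −log10 p values of 101 and 111. The region 17120 bp from Plxna2, a semaphorin receptor gene (chr1:194601954-194602671), had the highest fold of the 937 in both lists, 14.5 and 18.2. A region inside Dock1, an activator of the Rac GTPase in cell migration (chr7:134799875-134800603), had the highest −log10 p of the 937 at day 7, 140, with folds of 12.3 and 17.5.

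The Dclk1 region shown above lay with its middle 219540 bp past the gene's first start site in the table and covers a second, internal start (chr3:55461609-55462199). Dclk1 encodes a doublecortin-like kinase of microtubules. Its folds were 12.2 and 14.2, with both summits within 100 bp of the start, at 95 and 99 bases after it. Other strong regions lay in Tpd52l1 (folds 13.8 and 15.1), in Dpp10 (10.7 and 11.2), an accessory subunit of potassium channels, and 5071 bp from Tmem45a (12.7 and 14.4). The Dpp10 region stood alone, with 1388625 bp to the nearest peak of any of the other 6 lists. The rest of the 12 strongest regions, nearest to Zfp703, Kbtbd8, Ado, Chrm3 and Nrbf2, lay 61527 to 224946 bp from those genes, and the gene they may act on is not given by distance.

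**Figure D2:**
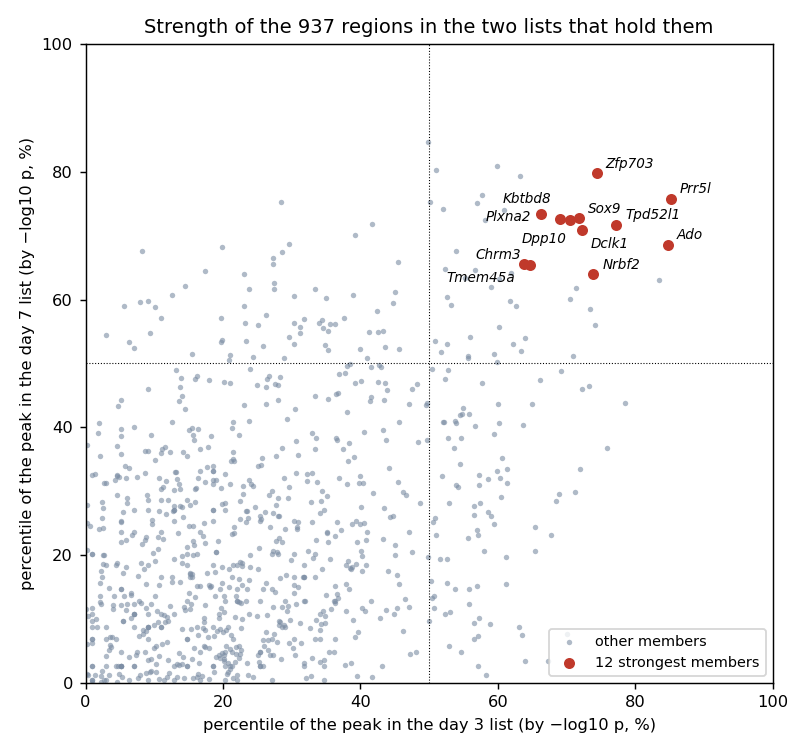
Percentile of each of the 937 regions, by −log10 p, among the day 3 peaks (horizontal axis) and the day 7 peaks (vertical axis), in percent. Dotted lines mark 50%, which 50 regions pass in both lists, and red points are the 12 regions with the largest lower percentile, labelled by nearest protein-coding gene.

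Of the regions within 1 kb of a gene end, the 8 with the highest lower percentile lay at Akr1c18 (53.9), Marchf3 (52.0), Mpv17l (48.9), Capn5 (42.5), Adamts5 (41.4), Tacc1 (39.9), Fgf2 (39.2) and Aire (37.7). The Akr1c18 region (chr13:4150418-4152038) covers the gene's start, with folds of 7.34 and 9.56 and −log10 p values of 77.4 and 102. At Akr1c18 the day 3 list held 2 regions, the day 7 list 1 and the other 6 none. Adamts5 encodes a protease that cleaves the proteoglycans of the extracellular matrix, and its region (chr16:85900530-85901843) had folds of 6.73 and 8.24, with 1 more region of the gene in the hair follicle list. Aire, known as the regulator of self-antigen expression in the thymus, had this 1 region (chr10:78042520-78043961), with folds of 10.6 and 11.3. The folds were 8.42 and 12.2 at Marchf3, 11.1 and 12.8 at Mpv17l, 9.45 and 9.96 at Capn5, a calpain protease gene, and 9.01 and 13.4 at Tacc1. The Capn5 region lay inside that gene and far from its ends, and the gene end 250 bp from it was that of another protein-coding gene.

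Gene-end regions were more frequent among the weaker ones. Of the 312 regions with the lowest lower percentile, 12.2% (8.76 to 16.3) were within 1 kb of a gene end, of the next 312 6.73% (4.21 to 10.1) and of the strongest 313 5.75% (3.44 to 8.94). The median distance to the nearest gene rose from 517.5 bp to 2222 bp and 7225 bp over the same 3 sets. The intervals of the weakest and strongest sets overlap slightly, and the difference was not tested.

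By gene, the regions were scattered. Of the 52775 regions within 50 kb of a protein-coding gene, 736 (1.39%) were of this kind, and 677 of 15022 genes with any region (4.51%) had at least 1. A single region was found at 623 genes, 2 at 49 and 3 at 5, and no gene had more. The 5 were Stc1, Sfrp2, Irf2, Zfp366 and Gpc6, of which Stc1 alone had 3 with lists cut to equal length. At 48 genes every accessible region was of this kind, but nearly all of these had a single region in all. Only 2 of them had 2 regions, Aldh8a1, a retinal dehydrogenase gene, and Scml4, a Polycomb-related gene.

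Stc1, which encodes the secreted glycoprotein stanniocalcin, had 5 regions, 3 of them held by the early partial-thickness lists alone. The day 3 and day 7 partial-thickness lists held 4 regions each, the full-thickness day 7 list 0, and the other 5 lists 1 each. The 3 regions lay 47584 bp and 4606 bp on one side of the gene and 25534 bp on the other, with folds at day 3 of 9.56, 8.11 and 10.4 and at day 7 of 12.3, 8.45 and 13.4 (gene ID 20855, chromosome 14, 69029289 to 69041401). As 3 of the 4 in each early list are the chosen ones, these lists held 1 further region each, as many as 5 of the other 6.

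Sfrp2, a secreted inhibitor of Wnt signalling, had the tightest group, 3 regions that together spanned 16490 bp (chr3:83781751-83782389, chr3:83789654-83790427 and chr3:83797647-83798240). They lay 7437, 15340 and 23333 bp beyond the gene's 3′ end. Their folds were 8.73, 5.97 and 10.2 at day 3 and 11.1, 8.02 and 10.3 at day 7. The gene had 2 regions in each of the hair follicle, day 0 epidermal and day 80 full-thickness lists, 3 in the day 80 epidermal and day 7 full-thickness lists and, after the partial-thickness wound, 6, 5 and 1 at days 3, 7 and 80. Between the first and the next of them lay a region of the day 80 epidermal list and another shared by the day 3 partial-thickness and day 7 full-thickness lists. All 3 were weak, at lower percentiles of 12.6, 8.24 and 6.90, and with lists cut to equal length Sfrp2 had 0 regions of this kind.

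Fgf2 was accessible in few lists. The day 3 list held 4 regions, the day 7 list 3, and the day 7 full-thickness and day 80 partial-thickness lists 1 each, while the 3 unwounded lists and the day 80 full-thickness list held 0. One region of the kind described here covers the start site shown above (chr3:37347842-37348940), with folds of 9.10 and 11.005. The other is inside the gene (chr3:37360574-37361344), with folds of 12.6 and 12.02 and −log10 p values of 114 and 70.6. The region between them was the one kept in the day 80 partial-thickness list. In the day 7 list the peak of the start-site region ended 41 bases before the start, and in the day 3 list it ran 287 bases past it.

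Irf2, which encodes an interferon regulatory factor, had 15 regions, and its 3 of this kind stood among many that other lists shared. The lists held 5 (hair follicle), 4 and 6 (epidermis, day 0 and day 80), 14, 12 and 6 (partial-thickness, days 3, 7 and 80) and 9 and 7 (full-thickness, days 7 and 80). Zfp366, a zinc finger gene, had 9 and 11 in the early partial-thickness lists and 11 in the day 7 full-thickness list. Gpc6, a heparan sulfate proteoglycan gene of 1054610 bp, had 11 and 10 in the early partial-thickness lists, beside 14 for the hair follicle and 0 to 2 in the other 5. Prr5l had 2 of 5 regions of this kind, and the lists other than the early partial-thickness ones held 0 or 1.

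**Figure D3:**
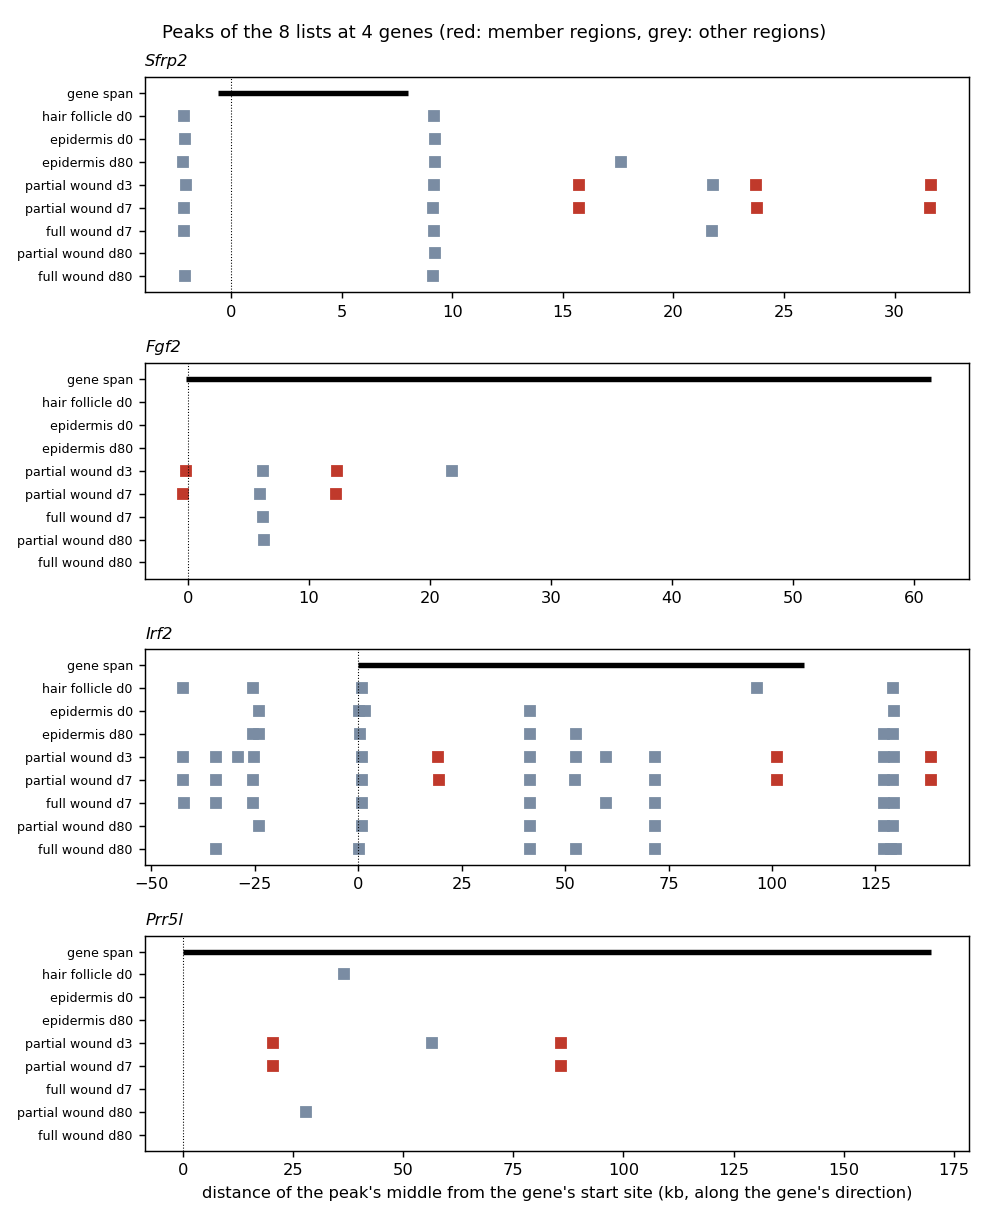
Peaks of the 8 lists (rows) at Sfrp2, Fgf2, Irf2 and Prr5l, each placed by the distance of its middle from the gene's start site in kb (horizontal axis), with the gene's span in black. Red squares are the regions held by the day 3 and day 7 partial-thickness lists alone, 3 at Sfrp2, 2 at Fgf2, 3 at Irf2 and 2 at Prr5l, and grey squares are peaks of other regions of the gene.

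The remaining genes with 2 regions that were named by rule varied in how closed they were elsewhere. Erich3 had 2 and 3 regions in the early partial-thickness lists and 0 in the other 6. Grin1, an NMDA glutamate receptor subunit gene, had 3 and 2, with 1 in the day 7 full-thickness list. Tspan12, a tetraspanin of Norrin and Wnt receptor complexes, had 3 and 3, beside 1 of the hair follicle and 1 of the full-thickness wound at day 7. Dclk1 had 5 and 3, beside 3 of the hair follicle and 1 of the full-thickness wound at day 7. Sgcd, a muscle sarcoglycan gene, had 3 and 3, with 4 in the hair follicle list. Brinp2, Negr1, Rab3b and Cdk18 had 3 to 5 in the early partial-thickness lists and 0 to 2 in each other list. Spdl1, a mitotic spindle gene, and Ppargc1b, a coactivator of mitochondrial genes, had 2 or 3 and 1 to 3 in the other lists. As the rule kept only regions absent from 6 lists, an excess in the early lists at these genes is built in, and the counts are descriptive.

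**Figure D4:**
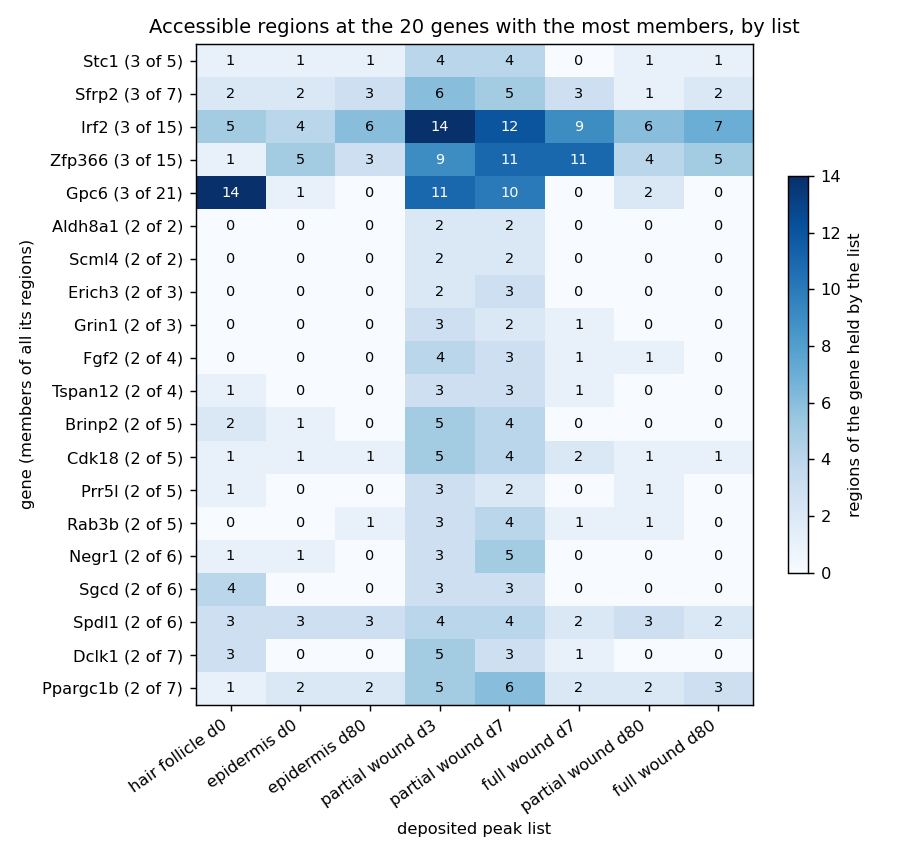
Number of accessible regions held by each of the 8 lists (columns) at the 20 genes with the most regions of this kind (rows, with their number of all regions of the gene). The day 3 and day 7 partial-thickness columns hold 2 to 14 regions per gene, and Aldh8a1, Scml4 and Erich3 have 0 in all other columns.

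Counted along chromosomes with gaps of at most 100 kb, 766 of the 937 regions stood alone, 69 loci held 2 and 11 loci held 3. Besides Sfrp2, Stc1, Irf2 and Zfp366, the loci of 3 lay around Nrbf2, Zhx2, Adamts9 and Magi1, Btf3l4 and Rab3b, Lpcat2 and Mmp2, Arfip1 and Fhdc1, and Ampd2, Eps8l3 and Gstm3. At Lpcat2 and Mmp2, a lipid-remodelling enzyme gene beside a gelatinase gene, the 3 regions spanned 109149 bp among 15 regions. Chromosome 6 had the highest share, 72 of 3368 regions (2.14%, 1.68 to 2.68), and chromosome 19 the lowest among the autosomes, 16 of 1883 (0.85%, 0.49 to 1.38). The share over all regions was 1.48%. These are the extremes of all chromosomes, picked by their values, so their intervals set neither apart, and no difference was tested.

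Although no other list had a peak in them, the regions were seldom remote from other accessible DNA. The nearest peak of any of the other 6 lists was a median of 8844 bp away. It was within 1 kb of 44 regions, within 5 kb of 279 (29.8%, 26.9 to 32.8) and within 20 kb of 699 (74.6%, 71.7 to 77.4), and 28 regions had none within 100 kb. For single lists the share within 5 kb ran from 14.9% for the day 0 epidermal list to 18.1% for the day 7 full-thickness list, with 16.5% for the hair follicle list, and the intervals of these 3 overlap.

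The genes that had these regions were long, with a median span of 70488 bp against 23249 bp for genes with regions and none of this kind. They had a median of 5 regions, against 2 over all genes with regions. A gene with more regions has more chances to hold 1 of this kind, so such differences are partly built in. The other regions of these genes, which the rule did not choose, could be compared with those of other genes. Regions within 1 kb of a gene end, at either side of a gene, made up 10.7% of the other regions at these genes and 24.1% of those elsewhere. To limit their part, the comparison was also made over 1 kb from a gene end. There, the day 7 full-thickness list held 48.1% (46.5 to 49.6) of 4135 other regions at genes with regions of this kind and 56.2% (55.6 to 56.7) of 35966 at other genes. The day 80 partial-thickness list held 43.0% (41.5 to 44.5) and 48.7% (48.2 to 49.2), the day 80 full-thickness list 42.9% and 46.4%, and the day 80 epidermal list 41.6% (40.1 to 43.2) and 44.4% (43.9 to 44.9). In the opposite direction, the hair follicle list held 43.8% (42.3 to 45.3) and 37.6% (37.1 to 38.1), and the day 7 partial-thickness list 50.4% (48.9 to 51.9) and 48.1% (47.5 to 48.6). The day 3 list held 50.8% and 50.7%, and the day 0 epidermal list 41.0% and 42.2%, with overlapping intervals. With gene ends included, the hair follicle list held 47.2% and 47.5%, so its difference depends on leaving gene ends out. The day 7 partial-thickness list then changed direction, with 53.7% (52.2 to 55.1) and 56.4% (56.0 to 56.9). The day 3 list held 54.0% and 58.9% and the day 0 epidermal list 44.6% and 50.4%, with intervals that no longer overlap. The day 7 full-thickness list held 51.5% and 63.1%. Regions of 1 gene are not independent, so these intervals are too narrow, and the part of gene length in the differences was not tested.

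**Figure D5:**
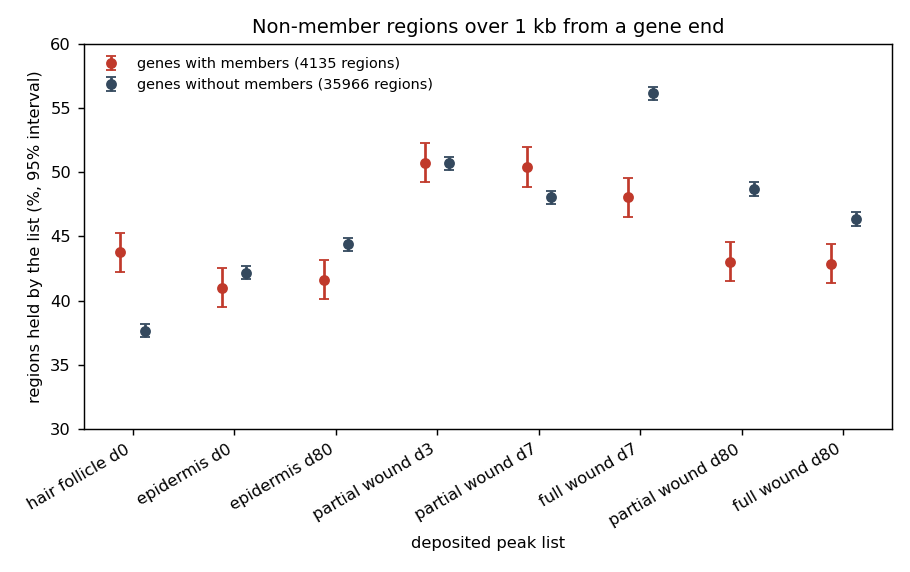
Share of accessible regions over 1 kb from a gene end that each of the 8 lists held (vertical axis, percent, with 95% binomial intervals), for the 4135 other regions at genes with a region of this kind and the 35966 regions at genes without. The hair follicle list held more at the former (43.8% against 37.6%) and the day 7 full-thickness list fewer (48.1% against 56.2%).

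In gene lists for skin and wound biology, counts were small throughout, and the share to set them against is the 1.39% of all assigned regions. Hair follicle stem cell genes had 6 of 185 regions (3.24%), at 5 of 20 genes: Lgr5, an R-spondin receptor of follicle stem cells (2), the surface marker Cd34, the activin and BMP antagonist Fst, Nfatc1 and Sox9 (1 each). The Lgr5 pair lay 5247 and 29597 bp from the gene, with folds of 10.8 and 9.21 at day 3 and 11.9 and 9.79 at day 7. The Cd34 region (chr1:194908675-194909586) had folds of 10.5 and 15.5 and lay 29235 bp from the gene. In all, the hair follicle list and each early partial-thickness list held 7 regions at Lgr5, the day 0 epidermal and day 7 full-thickness lists 1 each, and the 3 day 80 lists 0.

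Epidermal stem cell genes had 3 of 138 (2.17%), at Ovol1, Grhl3 and Prdm1, which encode transcription factors of epidermal differentiation. All 3 were weak, with folds of 3.33 to 5.11 at day 3 and 4.20 to 7.42 at day 7. Terminal differentiation genes had 2 of 75 (2.67%), at Casp14, a caspase of cornifying cells, and 20029 bp from Notch3, a Notch receptor gene. The Notch3 region had folds of 12.2 and 13.2 and was in the upper 50% of both lists. Basal keratinocyte genes had 1 of 132 (0.76%), 16397 bp from Trp63, the gene of p63, a master factor of stratified epithelium, although Trp63 held 16 and 12 regions in the early partial-thickness lists in all.

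Genes of growth factor signalling had 5 of 160 (3.12%): 2 at Fgf2 and 1 each at the receptor genes Fgfr1 and Igf1r and at Tgfa, which encodes a ligand of the EGF receptor. The Igf1r region, 7225 bp from the gene (chr7:67944479-67945032), had folds of 9.07 and 13.6 and stood at percentiles 61.9 and 64.1. Inflammation genes had 4 of 208 (1.92%), at Il1r2, a decoy receptor for interleukin 1, Il6st, the shared receptor chain gp130, its ligand gene Lif and the NF-kB cofactor gene Nfkbiz. The Il1r2 region had −log10 p values of 99.9 and 78.5, and a peak of another list lay 559 bp from it. Wound epithelium genes had 1 of 119 (0.84%), at Tgfa, and the AP-1 and stress genes 0 of 131. The genes Fosl1, Krt6a, Krt17, Itga5, Plau, Epha2 and Egfr, which encode a wound-induced AP-1 subunit, wound keratins, a fibronectin receptor subunit, urokinase and 2 growth control receptors, had none, so that their regions in the early partial-thickness lists were also in at least 1 other list or in only 1 of the 2.

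Migration and actin genes had 7 of 436 (1.61%), 2 of them at Lpp, a focal adhesion gene, and others at Dock1, the kinase gene Rock2 and the filopodial myosin gene Myo10. Cell adhesion genes had 2 of 264 (0.76%), in Lamc1, a laminin chain gene, and Tjp1, a tight junction gene. Among Wnt and hedgehog genes, beside the Lgr5 pair, the hedgehog transducer gene Smo and the effector gene Gli3 had 1 each. For BMP and TGF-beta genes the count was 2 of 247 (0.81%), at Bmpr2, a BMP receptor gene, and Fst. Sebaceous gland and isthmus genes had 3 of 59 (5.08%), at Gata6, Cidea and Scd1, a lipid desaturase gene. Proliferation (67 regions), interferon (24) and housekeeping (29) genes had 0. With counts of 0 to 7 per list, none of the lists is called apart from the 1.39% over all assigned regions.

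The labelled cell type was checked against marker genes in the 2 lists that hold the regions. The keratinocyte genes Krt14 and Krt5 had 3 and 1 regions at day 3 and 2 and 1 at day 7, and Itga6, a basal integrin gene, 6 and 5. At follicle markers, the hair follicle list and the day 3 and day 7 partial-thickness lists held 3, 1 and 1 regions (Krt15) and 6, 5 and 5 (Lhx2). They held 10, 8 and 9 at Nfatc1, 4 each at Cd34 and 3, 6 and 5 at Sox9. Of markers of other cell types, Cd207, Csf1r, Kdr and Tyr had 0 regions in all 8 lists, and Dpt and Col1a2 had 0 in the early partial-thickness lists. Others had regions there: the fibroblast markers Col1a1 (2 at day 3 and 1 at day 7) and Pdgfra (1 and 1), the immune markers Spi1 (2 and 2), Itgam (1 and 1) and Cd3e (0 and 1), the endothelial marker Cdh5 (1 and 1), the melanocyte markers Dct (1 and 2) and Sox10 (1 and 1) and the muscle markers Des (1 and 1) and Myh11 (1 and 0). The endothelial marker Pecam1 had 8 regions in each early partial-thickness list and 2 to 8 in the others, and the leukocyte marker Ptprc had 3 and 2, against 0 to 2. Over the whole lists, immune genes had 10 regions in each of the early partial-thickness lists and 3 to 11 in the others, endothelial genes 24 and 23 against 12 to 20, fibroblast genes 11 and 10 against 10 to 25, melanocyte genes 10 and 10 against 9 to 14, and muscle genes 5 and 3 against 2 to 5. Among the 937 regions, immune genes had 1 of 20, inside Ptprc (folds 10.5 and 12.03), endothelial genes 1 of 48, near Erg, melanocyte genes 1 of 24, inside Mitf, and fibroblast (39) and muscle (9) genes 0. Accessibility near a marker is not its expression, and the part of other cell types in the regions was not tested.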

How the data were processed

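Peaks were taken from 8 deposited lists, 1 per group of 2 to 4 samples, in narrowPeak columns. The mm10 build and the tools MACS2 2.1.1.20160309, bedtools 2.29.2, Bowtie and Picard are named, with no role or order, per the submitters' processing notes. Pooling of reads before peak calling is not stated there. Each deposited peak carries a fold enrichment, a ratio to the local background, and a −log10 p, both the authors' values within that list. Neither is compared between lists. The authors' deposited summit offset gave the summit position.

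Peaks sharing at least 1 bp were merged (Python 3.11.15, pandas 2.3.3, scipy 1.17.1, tested on simulated peaks), and each region took the closest protein-coding gene up to 50 kb away from a RefSeq table of GRCm38.p6 (21896 genes). Exons, introns and UTRs were not analysed here, nor were chromosome 18 start sites (37 regions). A planned motif count around summits needs genome sequence and was not run, and start-site windows were used. Of the 677 genes, 529 matched the promoter table by symbol. Of the genes in 21 lists, 3 were not matched, and a result of the Wnt and hedgehog list is not reported here.

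The genes named are the 20 holding most regions, up to 4 per gene list, those of the 12 strongest regions and the 8 strongest at gene ends, and 14 fixed genes. Dock1, Zhx2, Mmp2 and other genes of loci or windows were added after their values were seen. The regions, gene lists and settings were chosen with earlier results of these data known.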

Additional observations from a re-analysis of the deposited data

How the results depend on the processing

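For the number, place, width and genes of the regions, 41 comparisons with an alternative stayed within 1.5 times for a count, or within the interval of the reported value for a share or width, and 11 did not. For single genes and gene lists, 439 counts stayed within 1.5 times and 128 did not. With only the upper 50% of the day 3 and day 7 partial-thickness lists and the other 6 whole, 50 regions at 30 genes were left, 30% of them inside a gene, 60% within 50 kb of a protein-coding gene and 4% within 1 kb of a gene end. With presence set at 50% coverage of a region, 47.8% of the regions had a peak of another list within 5 kb and the median width was 834 bp, since a shorter overlap then counted as absence. Without regions that had a peak of another list within 1 kb, the share within 5 kb was 26.3%, by construction. A gene-end window of 2 kb gave 10.4%. Leaving out the weakest 10% of the other 6 lists, chosen after seeing the data, gave 1408 regions at 1016 genes. Of 53 named genes with a region, 47 had none in the upper 50% of the early lists. Lists of equal length gave 675 regions, and 25 of the 53 genes then had none, among them Sfrp2, Scml4, Grin1 and Cdk18, while Irf2, Zfp366 and Gpc6 went from 3 to 1. Merging the early lists alone gave the same 937, again by construction. The comparisons of this setting are included in the 41 and 439 that stayed.

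No paired analysis was possible because each group came as 1 peak list. Depth is unknown, so absence from a list means no peak above that list's threshold, and weak regions near a threshold can enter or leave the set with it.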
